A study of Mus musculus with 13 samples.

Results

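10 transcripts that mark damaged kidney tubules were followed across 13 mouse kidneys. They were taken by name from a table of 34745 genes, and the 10 members are Havcr1 (which encodes Kim-1), Cd44, Lcn2, Spp1, Clu, Gdf15, Krt8, Krt18, Krt20 and Sox9. All 10 were present and all 10 passed the filter on low counts that left 15703 genes to test. The study asked how loss of DsbA-L, the product of Gstk1, alters kidney injury after lipopolysaccharide (LPS), a component of the bacterial outer membrane that provokes septic inflammation. Kidneys came from wild-type mice given saline (n = 3), Dsbal knockout mice given saline (n = 3), wild-type mice given LPS (n = 4) and Dsbal knockout mice given LPS (n = 3). Both agents were injected into the peritoneum, LPS at a dose of 10 mg/kg and the saline as 200 µL. The LPS kidneys keep the numbers of their labels here, as in AKI-156, and the saline kidneys are numbered N1 to N3 within each genotype. The labels give whole renal tissue and total RNA. The sources used here do not give the strain, age or sex, the time from injection to sampling, or whether the knockout was of the whole body or of chosen cells. Each label number was read as a separate mouse. Where that does not hold, the p-values measure only the spread between these samples.

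The epithelium of the nephron loses its specialised transport program after injury and turns on a small set of repair and stress genes. Kim-1 is absent or scarce in healthy proximal tubule and appears on its surface after damage, where it lets the surviving cells take up debris. Lipocalin 2 (Lcn2, also NGAL) binds bacterial siderophores and is released by injured tubules and by neutrophils. Sox9 is a transcription factor of the developing kidney that surviving tubule cells switch on again during regeneration, and keratins 8, 18 and 20 are filament proteins whose levels rise in stressed tubule cells.

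Libraries held 1.44e+07 to 1.77e+07 counts. Levels are CPM, counts relative to library size after scaling by TMM factors of 0.772 to 1.19, and differences are log2 fold changes ± SE from an edgeR quasi-likelihood fit of all 13 libraries, with Benjamini-Hochberg adjustment over the 15703 genes and a call at adjusted p below 0.05. The targeted gene, Gstk1, measured 40.5 to 54.1 CPM in saline kidneys of wild type, against 2.51 to 3.77 in those of the knockout. The corresponding LPS kidneys measured 21.2 to 41.8 CPM and 0.0643 to 1.58 CPM. Xist had 11446 to 19041 counts in each saline library and at most 10 in each LPS library, and Ddx3y had 0 counts in each saline library and at least 951 in each LPS library. Every comparison of LPS with saline is therefore also one of male with female mice, and the 2 cannot be told apart. Knockout LPS library AKI-156 lay at 79.4 on the first principal component, near the wild-type LPS libraries at 94.1 to 111, while AKI-320 and AKI-381, the other two of that group, lay at 18.8 and 20.1. These are whole-kidney samples, so fewer cells of a type and less RNA per cell cannot be told apart.

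**Figure D1:**
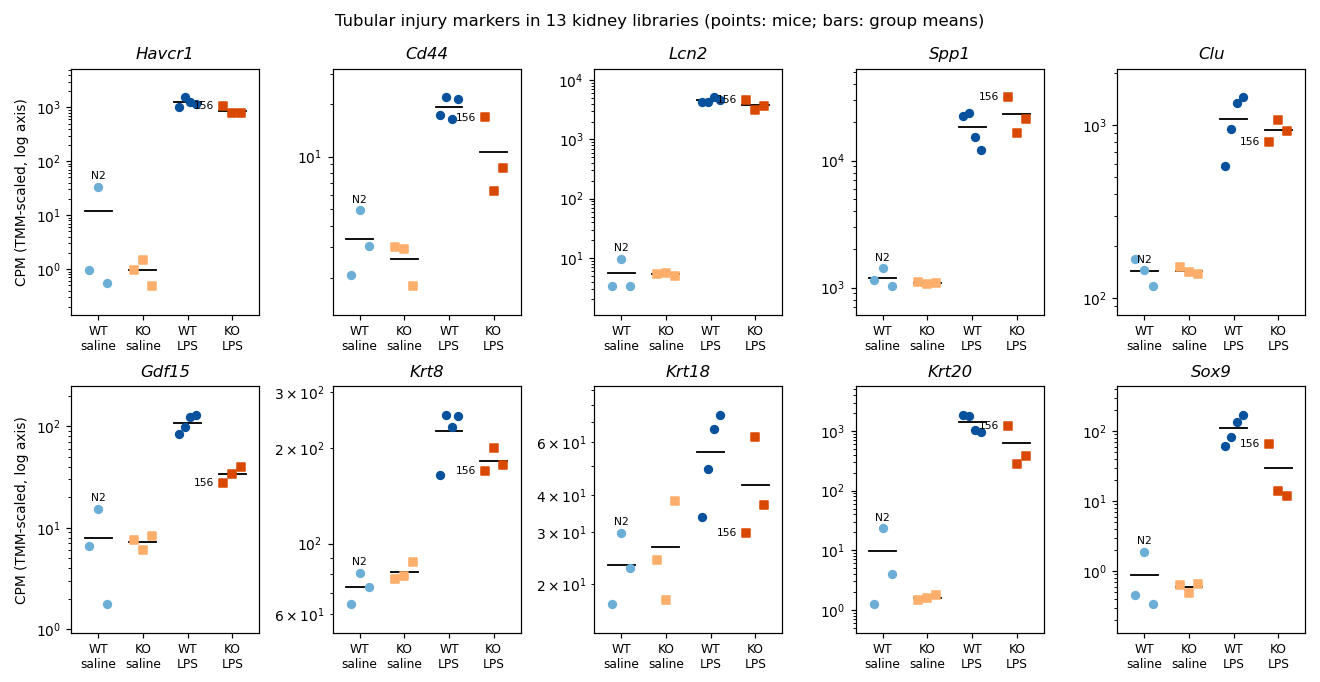
CPM (TMM-scaled, log axis) of the 10 injury transcripts in each of the 13 kidneys, by group, with a bar at the group mean. The LPS kidneys lie above the saline kidneys for every transcript, apart from an overlap of Krt18 in the knockout, and wild-type saline library N2 is raised for Havcr1, Krt20 and Sox9.

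In wild-type mice the kidneys given LPS had higher levels of all 10 transcripts than those given saline. All 10 were called higher, where 28.4% of all tested genes were (57% in either direction), and for all 10 the lowest LPS kidney exceeded the highest saline kidney, as it did for 29.1% of tested genes. In the knockout 9 of 10 were called higher, against 14.7% of tested genes (27.6% in either direction), and the same 9 did not overlap, against 23.3% of tested genes. Krt18 was the exception in the knockout. The members' median log2 difference was 3.87 in wild type and 3.55 in the knockout, beside medians of 0.00017 and 0.026 over all tested genes. The members are known injury markers, and low-level ones such as Sox9 passed the filter through the LPS libraries.

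Between genotypes under LPS only 2 of the 10 were called, both lower in the knockout, where 6.29% of tested genes were lower and 15% differed in either direction. These were Gdf15, a stress-induced circulating hormone, at -1.69 ± 0.45 (adjusted p = 0.0240), and Sox9 at -1.90 ± 0.58 (adjusted p = 0.0427). Gdf15 was the only member whose knockout and wild-type LPS kidneys did not overlap, against 8.99% of tested genes not overlapping downward. The other 8 did not pass, and 7 of the 8 differences were below 0. Without TMM factors the median of all genes moved from -0.0014 to 0.34 and the share of calls that were higher in the knockout from 58.2% to 87.4%, and Lcn2, Krt8 and Clu then stood at 0.030, 0.015 and 0.12. Gdf15 and Sox9 stayed called with that scaling, at -1.35 and -1.67.

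Levels per length placed osteopontin first in every group. Per kilobase of merged exons, Spp1 had 724 ± 123 CPM with saline in wild type (SD, n = 3), followed by Clu at 41.8 ± 7.48, Krt8 at 37.2 ± 4.22 and Krt18 at 16.1 ± 4.41 CPM per kilobase. Havcr1, Krt20, Gdf15 and Lcn2 came next at 5.08 ± 8.23, 4.97 ± 6.28, 4.26 ± 3.72 and 2.08 ± 1.40 CPM per kilobase, with ranges that overlapped from each to the next, and Cd44 and Sox9 were lowest at 0.494 and 0.217. Library N2 raised the Havcr1 and Krt20 means, at 14.6 and 12.2 CPM per kilobase, against 0.423 and 0.643 in N1 and 0.234 and 2.11 in N3. In wild-type LPS kidney (n = 4) the order was Spp1 at 11222 ± 3410, Lcn2 at 1761 ± 168, Krt20 at 735 ± 252, Havcr1 at 539 ± 99.9, Clu at 315 ± 116 and Krt8 at 115 ± 21.5 CPM per kilobase. Gdf15, Krt18, Sox9 and Cd44 followed at 58.8, 38.8, 27.0 and 2.85. Krt20 overlapped Havcr1 in that order, Gdf15 overlapped Krt18, and Krt18 overlapped Sox9. Lcn2, Krt20 and Havcr1 thus moved from the lower ranks with saline to directly below Spp1 with LPS. In knockout LPS kidney (n = 3) Spp1 at 14084 ± 4715 and Lcn2 at 1445 ± 287 were again first, and Havcr1 (375 ± 67.9), Krt20 (326 ± 263) and Clu (273 ± 40.3) overlapped from each to the next. In the deposited FPKM, which rest on other gene lengths, Spp1 was also first in every group and Krt8 stood above Clu in both saline groups.

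**Figure D2:**
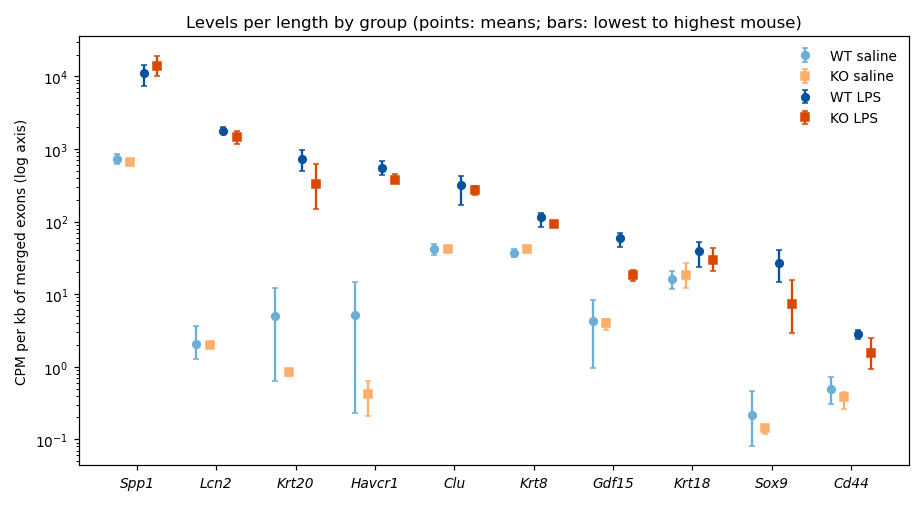
Level of each injury transcript in CPM per kilobase of merged exons (log axis), with a point at the group mean and a bar from the lowest to the highest mouse. Spp1 is highest in all 4 groups, and Lcn2, Krt20 and Havcr1 pass Clu and Krt8 under LPS.

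Start-site sequences of RefSeq (GRCm38.p6) were looked at because the members moved together with LPS. They covered 8 of the 10 members with 12 start sites, and Sox9 and Clu had no entry used here. The 250 bases before the start are given for Krt20 and Lcn2, which had among the largest rises, and for Gdf15, which differed between the genotypes. Capitals mark a TATAAA box in Krt20 and the SOX core motif ACAAAG in Gdf15, and Lcn2 held neither. For Gdf15 the window of start site 1 is shown, and that of start site 2 held neither motif.
Krt20 (chr11:99438154-99438403, - strand): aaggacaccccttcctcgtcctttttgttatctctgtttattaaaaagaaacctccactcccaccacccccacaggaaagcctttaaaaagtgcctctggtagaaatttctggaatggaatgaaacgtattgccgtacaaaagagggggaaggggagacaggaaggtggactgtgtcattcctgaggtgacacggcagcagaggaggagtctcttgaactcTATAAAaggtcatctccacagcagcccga
Lcn2 (chr2:32387740-32387989, - strand): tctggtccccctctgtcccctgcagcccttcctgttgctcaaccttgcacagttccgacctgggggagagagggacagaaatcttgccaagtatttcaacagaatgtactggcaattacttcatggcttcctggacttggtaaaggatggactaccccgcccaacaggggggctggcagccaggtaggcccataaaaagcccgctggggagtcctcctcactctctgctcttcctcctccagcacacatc
Gdf15 (chr8:70632457-70632706, - strand): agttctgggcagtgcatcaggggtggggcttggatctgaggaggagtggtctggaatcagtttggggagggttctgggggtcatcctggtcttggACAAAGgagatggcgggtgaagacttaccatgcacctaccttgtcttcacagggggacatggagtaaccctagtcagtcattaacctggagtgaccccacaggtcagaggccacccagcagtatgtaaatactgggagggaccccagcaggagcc

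Each window was searched on both strands for the AP-1 motif (TGA, any base, TCA), for the STAT motif TTCNNNGAA, for the C/EBP-ATF motif TGATGNAA, for the NF-kB consensus, for the SOX core ACAAAG and for TATAAA. No motif overlapped another in the windows shown. TATAAA lay at -29 to -24 in Krt20, and among the 12 windows it was found in 2, where 12.4% of 32851 windows of the same length held it. The SOX core was found in 4 of 12, against 16.5%, in windows of Spp1 (both), Krt18 and Gdf15 (start site 1). AP-1, STAT, C/EBP-ATF and NF-kB letters were found in 0 of the 12, against 6.75%, 7.02%, 3.45% and 3.9% of all windows. A match is a description of letters, and its absence says only that these letters are not in these windows.

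Among the surface proteins, Havcr1 (ENSMUSG00000040405, chromosome 11 from 46735080 to 46779578, + strand) and the other 9 members are annotated as protein coding, and all positions are those of GRCm38. Havcr1 stood at 0.978, 33.7 and 0.541 CPM in wild-type saline libraries N1, N2 and N3 and at 0.942, 1.47 and 0.477 CPM in knockout saline libraries N1, N2 and N3. With LPS it stood at 1019, 1558, 1263 and 1142 CPM in wild-type libraries AKI-12, AKI-13, AKI-317 and AKI-319 and at 1047, 773 and 778 CPM in knockout libraries AKI-156, AKI-320 and AKI-381. Apart from N2, Kim-1 transcript went from 8 to 24 counts in a saline library to between 13177 and 21798 counts in an LPS library. The rise was 6.72 ± 1.12 in wild type (adjusted p = 0.000200) and 9.80 ± 1.33 in the knockout (adjusted p = 0.000121). Wild-type saline N2 set the size of the first value, which was 10.66 without it. Under LPS the knockout difference was -0.52 ± 0.83, with a 95% interval of -2.30 to 1.25, which spans both a fall and a rise. A fit of the LPS libraries alone gave -0.50 ± 0.24 (adjusted p = 0.252).

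Cd44 (ENSMUSG00000005087, chromosome 2 from 102811141 to 102901665, - strand) encodes the hyaluronan receptor that also binds osteopontin and marks leukocytes as well as injured tubules. It stood at 2.09, 4.91 and 3.04 CPM in wild-type saline libraries N1 to N3 and at 3.01, 2.94 and 1.79 CPM in knockout saline libraries N1 to N3. LPS kidneys had 17.3, 22.0, 16.4 and 21.6 CPM in wild-type libraries AKI-12, AKI-13, AKI-317 and AKI-319 and 16.8, 6.34 and 8.54 CPM in knockout libraries AKI-156, AKI-320 and AKI-381. Knockout library AKI-156 lay inside the wild-type range and the other two knockout libraries below it. The rise was 2.52 ± 0.37 in wild type and 2.03 ± 0.38 in the knockout. Under LPS the knockout difference was -0.87 ± 0.34 (adjusted p = 0.0935, 95% interval -1.60 to -0.15). It passed without knockout library AKI-156, at -1.38 (adjusted p = 0.00746), and in limma-voom, at -0.99 (adjusted p = 0.0367). A fit of the LPS libraries alone gave -0.85 ± 0.33 (adjusted p = 0.169), and in 19 of 22 alternatives the difference did not pass.

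Among the secreted proteins, Lcn2 (ENSMUSG00000026822, chromosome 2 from 32384633 to 32388252, - strand) was low in every saline kidney. It stood at 3.39, 9.70 and 3.31 CPM in wild-type saline libraries N1 to N3 and at 5.34, 5.52 and 5.01 CPM in knockout saline libraries N1 to N3. After LPS it stood at 4262, 4295, 5202 and 4717 CPM in wild-type libraries AKI-12, AKI-13, AKI-317 and AKI-319 and at 4591, 3101 and 3678 CPM in knockout libraries AKI-156, AKI-320 and AKI-381. No library of either LPS group came near a saline library, and the spread within LPS was narrow, with the highest of 7 libraries 1.68 times the lowest. The rise was 9.72 ± 0.46 in wild type, 841-fold, and 9.48 ± 0.46 in the knockout, 716-fold (adjusted p = 1.65e-08 and 6.33e-08). Without wild-type saline N2 the wild-type value was 10.43. Under LPS the knockout differed by -0.29 ± 0.30 (adjusted p = 0.535), with a 95% interval of -0.92 to 0.35.

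Spp1 (ENSMUSG00000029304, chromosome 5 from 104435118 to 104441050, + strand) encodes osteopontin, a phosphoprotein of the extracellular matrix that binds integrins and CD44 and that the distal nephron makes without injury. It stood at 1139, 1416 and 1023 CPM in wild-type saline libraries N1 to N3 and at 1117, 1062 and 1094 CPM in knockout saline libraries N1 to N3. The LPS kidneys measured 22686, 23733, 15405 and 12154 CPM in wild-type libraries AKI-12, AKI-13, AKI-317 and AKI-319 and 31747, 16548 and 21335 CPM in knockout libraries AKI-156, AKI-320 and AKI-381. Osteopontin transcript alone made up 1.06 to 2.22% of all counts in wild-type LPS kidney and 1.96 to 3.22% in knockout LPS kidney, against 0.105 to 0.147% with saline. The rise was 3.95 ± 0.32 in wild type and 4.41 ± 0.33 in the knockout. Between the genotypes under LPS it stood at 0.33 ± 0.27 (adjusted p = 0.428), which did not pass and was the 1 difference of the 10 above 0 with TMM scaling.

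Clu (ENSMUSG00000022037, chromosome 14 from 65968483 to 65981548, + strand) encodes clusterin, a secreted chaperone that injured tubules release. It stood at 169, 145 and 117 CPM in wild-type saline libraries N1 to N3 and at 152, 143 and 139 CPM in knockout saline libraries N1 to N3. In LPS kidneys it reached 579, 947, 1341 and 1459 CPM in wild-type libraries AKI-12, AKI-13, AKI-317 and AKI-319 and 801, 1078 and 933 CPM in knockout libraries AKI-156, AKI-320 and AKI-381. All 3 knockout libraries lay within the wild-type range. The rise was 2.91 ± 0.29 in wild type and 2.70 ± 0.30 in the knockout, and the knockout difference under LPS was -0.21 ± 0.26 (adjusted p = 0.619).

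Gdf15 (ENSMUSG00000038508, chromosome 8 from 70629393 to 70632456, - strand) belongs to the TGF-beta superfamily and is induced by the integrated stress response. It stood at 6.58, 15.3 and 1.76 CPM in wild-type saline libraries N1 to N3 and at 7.66, 6.01 and 8.29 CPM in knockout saline libraries N1 to N3. With LPS it stood at 83.6, 99.3, 123 and 129.9 CPM in wild-type libraries AKI-12, AKI-13, AKI-317 and AKI-319 and at 27.9, 33.7 and 39.6 CPM in knockout libraries AKI-156, AKI-320 and AKI-381. Every knockout LPS kidney lay above every saline kidney and below every wild-type LPS kidney, and knockout library AKI-156 was the lowest of the 3. The rise was 3.78 ± 0.50 in wild type, 13.7-fold, and 2.20 ± 0.49 in the knockout (adjusted p = 3.24e-05 and 0.00415). Without wild-type saline N2 the wild-type value was 4.70. The knockout difference under LPS, -1.69 ± 0.45, was also called by a fit of the LPS libraries alone, at -1.66 ± 0.23 (adjusted p = 0.0351). The call ended without knockout library AKI-320, without knockout library AKI-381 or without wild-type library AKI-319, with adjusted p of 0.0862, 0.0810 and 0.0538 and differences of -1.68, -1.81 and -1.60.

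The keratins differed in how far they moved. Krt20 (ENSMUSG00000035775, chromosome 11 from 99428403 to 99438150, - strand), a type I keratin of intestinal and urothelial surface cells, stood at 1.24, 23.5 and 4.06 CPM in wild-type saline libraries N1 to N3 and at 1.44, 1.59 and 1.79 CPM in knockout saline libraries N1 to N3. LPS kidneys had 1868, 1800.4, 1044 and 952 CPM in wild-type libraries AKI-12, AKI-13, AKI-317 and AKI-319 and 1209, 285 and 389 CPM in knockout libraries AKI-156, AKI-320 and AKI-381. Knockout libraries AKI-320 and AKI-381 lay below all 4 wild-type LPS kidneys and library AKI-156 among them. The rise was 7.20 ± 0.93 in wild type, a value of 9.06 without saline N2, and 8.60 ± 1.03 in the knockout, a value of 7.70 without library AKI-156. Under LPS the knockout differed by -1.17 ± 0.69 (adjusted p = 0.259, 95% interval -2.66 to 0.31). A fit of the LPS libraries alone gave -1.16 ± 0.49 (adjusted p = 0.206). With saline N2 and knockout AKI-156 both left out, a choice made after the values were seen, the difference passed, at -2.08 ± 0.40 (adjusted p = 0.00349).

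Krt8 (ENSMUSG00000049382, chromosome 15 from 101996711 to 102004342, - strand) and Krt18 (ENSMUSG00000023043, chromosome 15 from 102028216 to 102032026, + strand) encode the type II and type I partners of the filaments of simple epithelia. Krt8 stood at 64.4, 80.9 and 73.1 CPM in wild-type saline libraries N1 to N3 and at 77.5, 79.0 and 87.2 CPM in knockout saline libraries N1 to N3. After LPS it stood at 164, 254, 233 and 253 CPM in wild-type libraries AKI-12, AKI-13, AKI-317 and AKI-319 and at 169, 200.1 and 177 CPM in knockout libraries AKI-156, AKI-320 and AKI-381. All LPS kidneys exceeded all saline kidneys for Krt8, and the knockout ones stayed within the wild-type range. It rose by 1.63 ± 0.17 in wild type and by 1.16 ± 0.18 in the knockout. Krt18 stood at 17.1, 29.8 and 22.7 CPM in wild-type saline libraries N1 to N3 and at 24.2, 17.7 and 38.2 CPM in knockout saline libraries N1 to N3. The LPS kidneys measured 33.7, 48.7, 66.5 and 74.2 CPM in wild-type libraries AKI-12, AKI-13, AKI-317 and AKI-319 and 29.7, 62.4 and 37.1 CPM in knockout libraries AKI-156, AKI-320 and AKI-381. In the knockout, saline N3 exceeded 2 of the 3 LPS kidneys. Krt18 rose by 1.27 ± 0.34 in wild type (adjusted p = 0.00648) and differed by 0.69 ± 0.36 in the knockout (adjusted p = 0.171), which did not pass. Between genotypes under LPS the differences were -0.31 ± 0.17 for Krt8 and -0.37 ± 0.33 for Krt18 (adjusted p = 0.212 and 0.465).

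Although Krt8 and Krt18 proteins pair in equal numbers in a filament, Krt8 transcript exceeded Krt18 transcript per length in every library. The ratio of Krt8 to Krt18 per kilobase was 2.37 ± 0.38 in wild-type saline, 2.44 ± 0.81 in knockout saline, 3.12 ± 0.68 in wild-type LPS and 3.34 ± 0.92 in knockout LPS kidney (SD, n = 3, 3, 4 and 3). The groups overlapped, and the single libraries ran from 1.68 to 4.17. Beside these members the table held 44 further keratin genes, of which 19 had 0 counts in all 13 libraries and 10 could be tested. Of those 10, 2 were higher and 4 lower with LPS in wild type, and 2 were higher in the knockout. Over all tested genes, 57% and 27.6% were called in either direction. Krt7, a duct keratin, stood at -0.23 ± 0.18 in wild type and 0.04 ± 0.19 in the knockout, neither called. Krt19, a keratin of ducts and injured tubules, stood at 0.027 ± 0.38 in wild type and rose by 1.5 ± 0.42 in the knockout. Both were chosen after their values were seen.

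Sox9 (ENSMUSG00000000567, chromosome 11 from 112782224 to 112787760, + strand) is the one transcription factor of the set. It stood at 0.456, 1.90 and 0.338 CPM in wild-type saline libraries N1 to N3 and at 0.628, 0.491 and 0.656 CPM in knockout saline libraries N1 to N3, from 5 to 31 counts. In LPS kidneys it reached 60.4, 81.7, 135 and 170.0 CPM in wild-type libraries AKI-12, AKI-13, AKI-317 and AKI-319 and 64.4, 13.8 and 11.9 CPM in knockout libraries AKI-156, AKI-320 and AKI-381. Library AKI-156 fell inside the wild-type range and the other two knockout libraries far below it, yet still above every saline kidney. The rise was 6.92 ± 0.79 in wild type, 8.11 without saline N2, and 5.64 ± 0.80 in the knockout, 4.42 without library AKI-156. Under LPS the knockout difference of -1.90 ± 0.58 became -3.12 ± 0.50 without library AKI-156 (adjusted p = 0.000772). The call was not held by a fit of the LPS libraries alone, at -1.88 ± 0.60 (adjusted p = 0.116). It also ended without any of 8 single libraries, which were knockout AKI-320 and AKI-381, wild-type AKI-317 and AKI-319, the 3 knockout saline libraries and wild-type saline N1, with adjusted p of 0.0532 to 0.179.

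**Figure D3:**
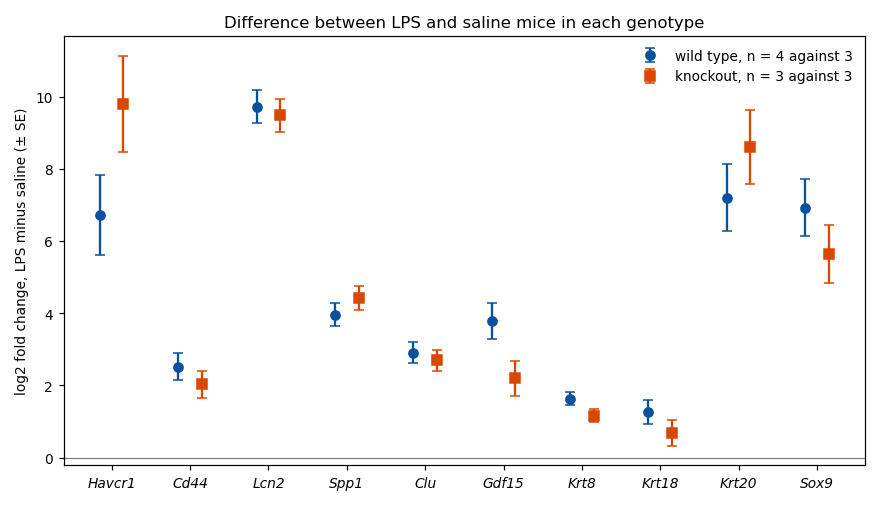
Log2 difference between LPS and saline kidneys for each injury transcript, as estimate ± SE from the edgeR fit, in wild type (n = 4 against 3) and knockout (n = 3 against 3). In wild type Lcn2 stands at 9.72 and Havcr1 at 6.72, an order that turns without saline N2 (10.43 and 10.66), and in the knockout they stand at 9.48 and 9.80, while Krt18 is lowest in both at 1.27 and 0.69.

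**Figure D4:**
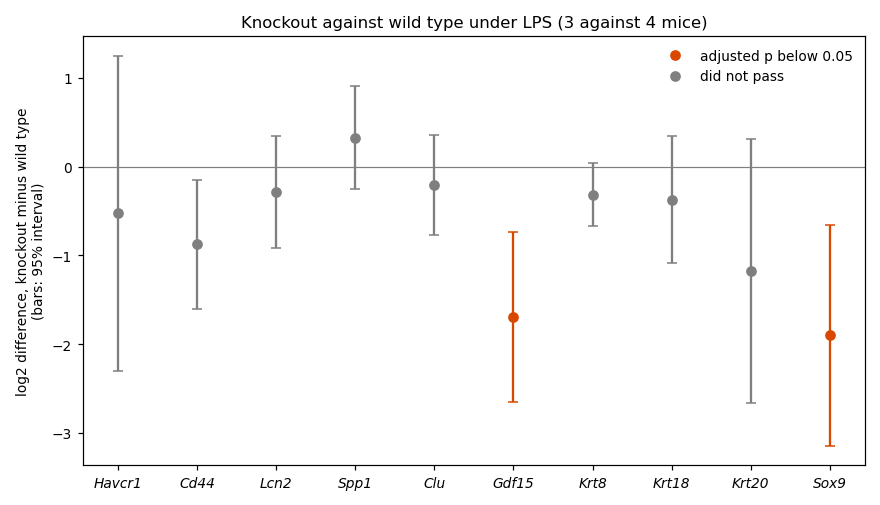
Log2 difference between knockout and wild-type kidneys under LPS for each injury transcript, with the 95% interval of the edgeR fit (n = 3 against 4). Gdf15 and Sox9 pass the adjusted threshold, and the intervals of Havcr1, Lcn2, Spp1, Clu, Krt8, Krt18 and Krt20 include 0.

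The 3 knockout LPS kidneys did not behave alike. Library AKI-156 lay within the wild-type LPS range for 7 of 10 members, where 63.8% of tested genes did, below it for Gdf15 and Krt18, where 18.2% of tested genes were, and above it for Spp1. Libraries AKI-320 and AKI-381 each lay within that range for 4 members, against 39.3% and 39.1% of tested genes, and below it for 6, against 29% and 29.5%. The 6 were Havcr1, Cd44, Lcn2, Gdf15, Krt20 and Sox9 in both. Relative to the wild-type LPS mean of log2 CPM, Sox9 was -2.89 in library AKI-320 and -3.10 in library AKI-381 but -0.68 in library AKI-156, and Krt20 was -2.24, -1.80 and -0.16 in the same order. Gdf15 was -1.67, -1.44 and -1.94, with no such split. Cd14, the LPS co-receptor, which is made by macrophages and by other cells, split in the same way, at 684 CPM in AKI-156, 157 CPM in AKI-320 and 204 CPM in AKI-381. The sum of the other 11 macrophage and monocyte markers did not, at 176, 177 and 170.1 CPM in the same order. Single markers within that sum can differ and were not read by library. The part of Cd14 or of these markers in the levels of the members was not tested.

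**Figure D5:**
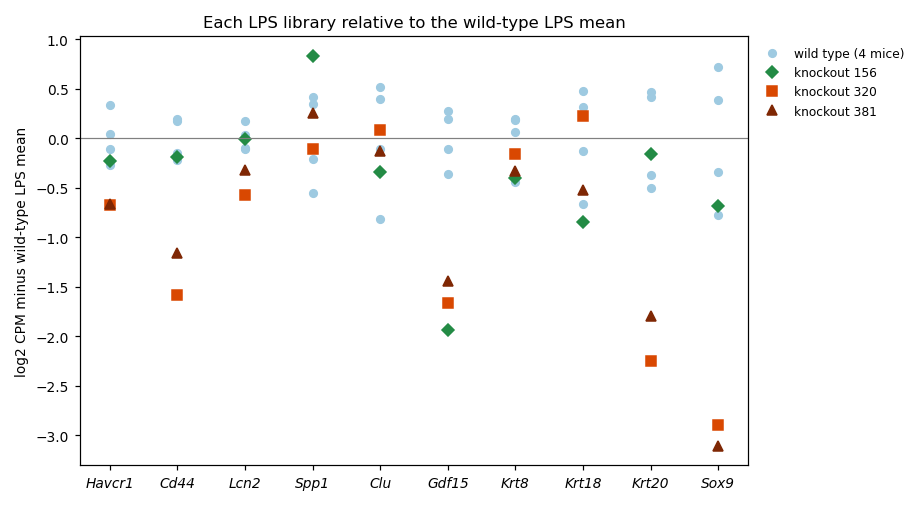
Log2 CPM of each LPS kidney minus the wild-type LPS mean, for each injury transcript, with the 4 wild-type kidneys as pale points. Knockout libraries AKI-320 and AKI-381 lie low for Cd44, Krt20 and Sox9 where library AKI-156 lies among the wild-type kidneys, and all 3 lie low for Gdf15.

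The wild-type LPS kidneys also fell into an order that depended on the gene. Libraries AKI-12 and AKI-13 had the higher levels of Spp1 and Krt20, and libraries AKI-317 and AKI-319 had the higher levels of Sox9, Clu, Krt18 and Gdf15. Over all 7 LPS kidneys the highest level was 14.3 times the lowest for Sox9, 6.55 times for Krt20 and 4.66 times for Gdf15, against 2.02 times for Havcr1 and 1.54 times for Krt8. The summed level of 12 neutrophil markers was 190, 126, 52.3 and 48.4 CPM in wild-type LPS libraries AKI-12, AKI-13, AKI-317 and AKI-319 and 261, 43.3 and 38.8 CPM in knockout LPS libraries AKI-156, AKI-320 and AKI-381. Neutrophil markers were thus also high in libraries AKI-12, AKI-13 and AKI-156. Their part in the levels of Lcn2, Spp1 or Krt20 was not tested.

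With saline the knockout and wild-type kidneys gave no call among the 10, where 0.0191% of tested genes were called by edgeR. At an unadjusted p below 0.05 there were 2 members, Havcr1 at -3.61 ± 1.11 and Krt20 at -2.57 ± 0.85, where 3.71% of tested genes were. DESeq2 gave no p for Havcr1 and called 0 of the other 9 members. The Havcr1 and Krt20 differences rested on wild-type saline N2, without which Havcr1 stood at 0.33 and Krt20 at -0.71 (adjusted p = 1 for both). Library N2 was the highest of the 6 saline kidneys for 7 of 10 members, where it was the highest for 16.3% of tested genes. It exceeded the next saline kidney 22.9 times for Havcr1, 5.78 times for Krt20, 2.90 times for Sox9, 1.85 times for Gdf15, 1.76 times for Lcn2, 1.61 times for Cd44 and 1.24 times for Spp1. Krt8, Krt18 and Clu were highest elsewhere. The same library also had the lowest summed proximal tubule level of the 6, 13401 CPM against 15634 to 17743, and the highest urothelial one, 65.8 CPM against 25.1 to 57.7. Their part in its levels was not tested.

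Whether the LPS response itself differed between the genotypes was tested as an interaction, and 0 members were called, where 2.1% of tested genes were by edgeR. At an unadjusted p below 0.05 there were 2, Havcr1 at 3.08 ± 1.36 (adjusted p = 0.203) and Gdf15 at -1.58 ± 0.65 (adjusted p = 0.175), a share near that of all tested genes, 22.2%. limma-voom called 0 of the 10, and DESeq2, which gave no p for Havcr1, called 0 of the other 9. Havcr1 turned to -0.86 without saline N2. With saline N2 and knockout AKI-156 both left out, a choice made after the values were seen, 4 members were called, where 1854 of 15951 tested genes were. The 4 were Sox9 at -3.69, Gdf15 at -2.38, Cd44 at -1.39 and Lcn2 at -1.11.

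Genes that work with the surface proteins were read beside them. Over all tested genes, 57% were called with LPS in wild type and 27.6% in the knockout, in either direction. Among 8 TIM family genes and Kim-1 partners, 6 could be tested, and 4 were higher and 2 lower with LPS in wild type and 2 higher and 1 lower in the knockout. Timd2, the mouse paralog of Kim-1 that binds ferritin, rose from 4.75 to 389 CPM in wild type (6.35 ± 0.41) and from 4.23 to 198 CPM in the knockout (5.54 ± 0.40). It was lower in the knockout under LPS, by -0.98 ± 0.31 (adjusted p = 0.0484). That call was not held by the fit of LPS libraries alone, nor without knockout AKI-320 or without knockout AKI-381. Among 16 tested genes of hyaluronan and CD44, 7 were higher and 1 lower in wild type and 3 higher in the knockout. Ezr, ezrin, which ties CD44 to actin, rose by 1.58 ± 0.15 and 0.64 ± 0.16, and its relative Msn, moesin, by 1.33 ± 0.17 and 1.37 ± 0.18. Ezr was also lower in the knockout under LPS, at -0.84 ± 0.15 (adjusted p = 0.00550), a call not held by the fit of LPS libraries alone.

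Receptors and partners of the secreted members included genes that rose and genes that fell. The shares of all tested genes called in either direction were 57% in wild type and 27.6% in the knockout. The endocytic receptor megalin, Lrp2, which takes up both lipocalin 2 and clusterin, fell by 3.37 ± 0.24 in wild type and by 2.61 ± 0.26 in the knockout, and the lipocalin 2 receptor Slc22a17 fell by 2.16 ± 0.28 and 1.33 ± 0.30. Mmp9, the gelatinase that lipocalin 2 stabilises, rose by 2.44 ± 0.61 and 3.37 ± 0.67, so that 1 of 3 tested lipocalin 2 partners rose and 2 fell in each genotype. Of 11 tested osteopontin receptors and relatives, 5 rose and 3 fell in wild type and 5 rose and 2 fell in the knockout. The integrin subunit Itgb3 rose by 3.25 ± 0.32 and 3.73 ± 0.34, and Itga5 by 2.21 ± 0.21 and 1.37 ± 0.21. Itga5 was lower in the knockout under LPS (-0.75 ± 0.19). The Itga5 call was not held by the fit of LPS libraries alone, nor without knockout AKI-320 or without knockout AKI-381. Of 8 tested clusterin partners, 3 rose and 4 fell in wild type and 3 rose and 3 fell in the knockout. Among them, the receptor Lrp8 rose by 2.24 ± 0.27 and 1.58 ± 0.27.

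Of 7 tested genes upstream of Gdf15 or in its receptor, 5 rose in wild type and 3 in the knockout, and 3 were lower in the knockout under LPS. Over all tested genes, 57% were called with LPS in wild type, 27.6% in the knockout and 15% between genotypes under LPS, in either direction. The stress factors Atf3 and Atf4 differed by -1.78 ± 0.41 and -0.87 ± 0.25 between knockout and wild type under LPS (adjusted p = 0.0133 for Atf3), and the immediate-early factor Egr1 by -2.01 ± 0.32 (adjusted p = 0.00377). In the fit of LPS libraries alone Atf3 and Egr1 stayed called and Atf4 did not. Ddit3, which encodes CHOP, stood at 0.10 ± 0.22. Of 23 tested SOX9 partners and kidney progenitor factors, 5 rose and 12 fell in wild type, and 2 rose and 7 fell in the knockout. Sox4, a SOX factor also linked to tubule injury, rose by 1.81 ± 0.30 and 1.49 ± 0.31, while Lhx1, a factor of nephron formation, fell by 2.33 ± 0.25 and 1.63 ± 0.26. Under LPS 5 of the 23 were higher and 2 lower in the knockout, with Sox18, an endothelial factor, at 2.67 ± 0.50 and Cdh6, a cadherin of the developing proximal tubule, at 1.98 ± 0.40. In the fit of LPS libraries alone none of these 7 was called.

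A further list of 50 tested injury and repair genes had 35 higher and 4 lower with LPS in wild type and 37 higher and 3 lower in the knockout, with median log2 differences of 2.04 and 1.60. Over all tested genes, 28.4% were higher in wild type and 14.7% in the knockout. Mmp7, the matrilysin of injured tubules, rose by 11.75 ± 0.62 and 10.00 ± 0.56 and Fga, the fibrinogen alpha chain, by 6.63 ± 0.43 and 6.06 ± 0.42. Between genotypes under LPS, 10 of the 50 were lower and 4 higher in the knockout, beside 988 lower and 1373 higher of 15703 tested genes. In the fit of LPS libraries alone these counts were 2 and 1, beside 54 lower and 48 higher of 14709 tested genes. Hbegf, a ligand of the epidermal growth factor receptor, was lower at -1.12 ± 0.19 and Dcdc2a, a doublecortin protein of cilia, higher at 1.41 ± 0.18. Over all the partner lists, 28 genes were called between the genotypes under LPS, and 4 of them were called in the fit of LPS libraries alone, namely Atf3, Dcdc2a, Egr1 and Hbegf. Over all tested genes the calls were 2361 of 15703 (15%) and 102 of 14709. The number tested over all the partner lists together is not given here, so the 28 are not read as a share. Without knockout library AKI-381 there were 7 of the 28 and without library AKI-320 there were 10, where all tested genes gave 520 and 732 calls.

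The profiles nearest to 9 of the members over the 13 libraries were found among 10883 genes by the root mean square difference of centred log2 CPM, as a description. For Sox9 the nearest were Fosl1 (0.51), Cd14 (0.54) and Plac8 (0.58). For Gdf15 they were Gch1 (0.57), Eps8l3 (0.62) and Tnfrsf12a (0.62), and for Krt20 they were Ubd (0.55), Fgb (0.74) and Orm1 (0.87). Havcr1 was nearest to the members Krt20 (1.03) and Lcn2 (1.10). Lcn2 was nearest to the Y-linked genes Eif2s3y (0.43) and Ddx3y (0.58) and then to Mmp7 (0.61). The first 2 of these are genes with no counts in any saline library. C3 (0.36) was nearest to Spp1, Rhou (0.28) to Cd44, Mrps18b (0.14) to Krt8 and Rbpms (0.22) to Krt18.

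Other cell types of the kidney were read from marker lists, as summed CPM. Over all tested genes, 57% were called with LPS in wild type, 27.6% in the knockout and 15% between genotypes under LPS, in either direction. Of 12 neutrophil markers, 9 could be tested and all 9 rose in both genotypes, with sums of 1.42 to 2.51 CPM in saline kidneys, 48.4 to 190 CPM in wild-type LPS kidneys and 38.8 to 261 CPM in knockout LPS kidneys. Camp, Elane, Ly6g, Mmp8, Mpo, Ngp and Retnlg were at 0 in all wild-type saline libraries, and Elane, Ly6g, Mmp8 and Mpo in all knockout saline libraries. Markers at or near 0 with saline could pass the filter on low counts only through the LPS libraries. The count of 9 that rose is therefore partly set by that filter. Lcn2 stood at 3101 CPM or more in every LPS kidney, and the part of neutrophils in that level was not tested. Of 12 macrophage and monocyte markers, 5 rose and 4 fell in wild type and 7 rose and 1 fell in the knockout. Between the genotypes under LPS, 7 were higher and 1, Cd14, lower in the knockout, with a median log2 difference of 1.07 beside -0.0014 over all tested genes, and Cx3cr1 at 4.09 ± 0.60 and C1qc at 1.33 ± 0.22 had the smallest p of the higher ones (edgeR adjusted p = 0.00316 and 0.00411). The sum over all 12, which includes Cd14, was 1046 to 1711 CPM in wild-type LPS kidneys and 333 to 860 CPM in knockout LPS kidneys, against 111 to 151 CPM in saline kidneys. Most of it was Cd14 in every LPS kidney except knockout AKI-320, at means of 1261 and 348 CPM in wild type and knockout. In AKI-320 Cd14 stood at 157 CPM, against 177 CPM for the other 11 markers. The other 11 markers summed to 77.7 to 107 CPM in wild-type LPS kidneys and 170.1 to 177 CPM in knockout LPS kidneys, which did not overlap, against 103 to 141 CPM in saline kidneys.

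Of 10 urothelial markers, 9 could be tested, and 6 fell with LPS in wild type and 3 in the knockout. Their sums were 25.1 to 65.8 CPM in saline kidneys and 10.9 to 32.2 CPM in LPS kidneys. Krt13 was at 0 in the saline libraries. Of 15 proximal tubule markers, 13 fell and 1 rose in wild type and 12 fell and 1 rose in the knockout, with sums of 13401 to 17743 CPM in saline kidneys and 2871 to 5723 CPM in LPS kidneys. The markers of the loop of Henle and distal tubule summed to 9586 to 11498 CPM in saline kidneys and 1395 to 3792 CPM in LPS kidneys. The part of any of these cell types in the levels of the 10 members was not tested.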

How the data were processed

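RNA-seq of whole kidney from 13 mice was analysed from 1 table of 34745 mouse genes, which holds counts per gene and FPKM for each library (26 columns, all used). Per the submitters' processing notes the authors used TopHat2 2.0.9, TopHat, HISAT2 and edgeR, and the notes name hg38, while the deposited table holds mouse Ensembl identifiers with GRCm38 positions. The counter and the handling of strand are not given in the sources used here, so reads of overlapping genes could be shared. Raw gene counts, as deposited, had no normalization, and per the file headers the authors also gave FPKM, scaled for length and depth. The FPKM imply gene lengths above merged exons for 57.3% of genes, so levels per kilobase used counts and GENCODE M21 merged exons.

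Genes passing filterByExpr (minimum count 10) were fitted with edgeR 4.0.16 (R 4.3.3) quasi-likelihood models with TMM factors and 1 mean for each of the 4 groups over all 13 libraries, so the groups share 1 estimate of spread. Calls used Benjamini-Hochberg adjusted p below 0.05. SE is the log2 difference divided by the square root of F. The fit was tested on simulated data. DESeq2 1.42.0, limma 3.58.1 (voom), RLE factors, library totals, other filters, fits of the compared groups alone and each library left out in turn were alternatives. Replicate libraries differed by more than sampling noise. Depths of 1.44e+07 to 1.77e+07 counts leave saline Sox9 at 5 to 31 counts.

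The members and the gene lists were chosen with earlier results of these data known. The 10 members are named throughout. Of each list of other genes, up to 2 called genes with the smallest p in a comparison and any receptor or partner could be named, with exceptions stated. The likeness of profiles is the root mean square difference over the 13 libraries of log2 CPM (prior count 2), centred per gene, among genes with a mean of at least 5 CPM. The likeness result for Clu is not reported here.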

Additional observations from a re-analysis of the deposited data

Results flagged for a closer look

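For 6 genes of the partner and repair lists the LPS response differed between the genotypes by the edgeR interaction test, while 0 of the 10 injury markers did. Over all tested genes 2.1% did. Of 50 tested injury and repair genes, 1 was above and 2 below 0. There was 1 of 16 tested genes of hyaluronan and CD44, 1 of 7 for Gdf15 and 1 of 23 for SOX9. The LPS difference in the knockout minus that in wild type was above 0 for Dcdc2a, a ciliary doublecortin protein, at 2.16 ± 0.27 (adjusted p = 0.00381), and for Sox18, an endothelial factor, at 3.26 ± 0.70 (adjusted p = 0.0409). It was below 0 for Egr1 at -2.69 ± 0.45 (adjusted p = 0.0248), Plaur, the urokinase receptor, at -1.79 ± 0.42, Hbegf at -1.24 ± 0.27 and Ezr at -0.94 ± 0.22. Sox18 fell in wild type (-3.26 ± 0.50) and stood at -0.0016 ± 0.49 in the knockout, and Egr1 rose in wild type (2.90 ± 0.33) and stood at 0.21 ± 0.32 in the knockout. DESeq2 called all 6, limma-voom called Dcdc2a, Egr1 and Ezr, and Dcdc2a was the 1 gene of the 6 whose call held with each library left out in turn.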

How the results depend on the processing

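Over the members' comparisons 1041 alternative values kept their direction and side of the threshold, 8 gained and 12 lost a call, and 32 changed sign, none of them a called value. All 10 members stayed higher with LPS in wild type under every alternative run, except that DESeq2 gave no p for Havcr1, in this or any other comparison. The cause of the changes below was not tested. Under LPS, between genotypes, 1 member was called with the LPS groups alone, 4 with wild-type saline N2 and knockout AKI-156 both left out, an alternative chosen after seeing the data, and 0 to 3 with 1 library left out. Over all genes these counts were 2361 as reported, 102 with the LPS groups alone, 3800 from library totals, 4158 without both libraries, and 520 (without knockout AKI-381) to 4539 (without knockout AKI-156). The interaction gave 330 genes as reported, 1356 by DESeq2, 895 from library totals, 123 by limma-voom, 1854 without both libraries (with 4 members), and 10 to 2529 with 1 library left out. With saline the 3 genes called became 25 by DESeq2, 9 with the saline groups alone and 1 to 4 with 1 library left out.

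Library totals gave 0.12 for Clu, 0.015 for Krt8 and 0.030 for Lcn2 between genotypes under LPS, -0.017 for Clu with saline, and 0.13 and 0.12 for the interactions of Clu and Lcn2. limma-voom gave 0.33 for Gdf15 and 0.13 for Lcn2 with saline. Without both libraries the saline differences were 0.0063 for Cd44, 0.80 for Gdf15, 0.33 for Havcr1, 0.65 for Lcn2, 0.56 for Sox9 and 0.010 for Spp1, and the interactions -1.02 for Havcr1 and -1.36 for Krt20. With 1 library left out, the saline differences ran from -0.63 to 0.0061 for Cd44, -0.12 to 0.14 for Clu, -0.58 to 0.80 for Gdf15, -4.16 to 0.33 for Havcr1, -0.15 to 0.43 for Krt18, -0.31 to 0.65 for Lcn2, -0.999 to 0.56 for Sox9 and -0.23 to 0.0099 for Spp1. The interactions ran from -0.86 to 3.64 for Havcr1, -0.47 to 1.92 for Krt20 and -0.94 to 0.025 for Lcn2.

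The saline libraries share the numbers N1 to N3 between genotypes, and same-numbered libraries did not deviate together (correlations of 0.018, -0.050 and -0.030), so the numbers were not taken as pairs. A replicate block gave 0 members and 1 gene, and 0.22 for Gdf15 and 0.11 for Lcn2.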
